A study of Homo sapiens with 9 samples.

Results

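The WNT family described here comprised 45 of the 42717 genes in the count table, chosen by gene symbol. They were 19 WNT ligands, 10 frizzled receptors (FZD), the 2 co-receptors LRP5 and LRP6, the 3 LGR receptors for R-spondins, 4 Dickkopf (DKK) and 4 secreted frizzled-related (SFRP) antagonists, and a group of 3 made up of the ubiquitin ligases RNF43 and ZNRF3 and the feedback gene AXIN2. The 9 libraries came from the lines S2-007, S2-028 and S2-020, unmodified sublines of the human pancreatic ductal adenocarcinoma (PDAC) line SUIT-2, with 3 libraries each, and all cells were grown in DMEM with 10% inactivated fetal bovine serum. S2-007 (maspin in nucleus and cytoplasm) was set against S2-028 (maspin in the cytoplasm only) in the study to relate gene expression to the localization of this serpin, whereas S2-020 has little maspin protein. Each kind of cell is 1 subline, so features of a subline and of its maspin state cannot be told apart. The labels do not say whether the libraries of a line came from separate cultures, so p-values measure the spread between these samples, which may be technical.

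WNT proteins are lipid-modified secreted ligands that bind a frizzled receptor together with LRP5 or LRP6, which stabilizes beta-catenin and switches on TCF/LEF target genes, or act through beta-catenin-independent routes such as planar cell polarity. RNF43 and ZNRF3 remove frizzled receptors from the cell surface, and R-spondins bound to LGR receptors counteract them. Inactivating mutations of RNF43 are known in PDAC and its precursors, where they make cells dependent on their own WNT ligands.

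Libraries held between 60328748 and 86253923 counts, so that 3 counts, taken as the floor of detection, equalled 0.0356 to 0.0490 CPM, counts scaled to library size. Counts are without molecular identifiers, and the floor covers counting error only. Pearson's r of log2 CPM, computed across genes and so not a test, was 0.976 to 0.981 within lines and 0.941 to 0.951 across them, and 9 of 9 libraries were nearest to one of their own line. All 6 epithelial markers passed 1 CPM in every library, and their sum was 4259 to 5398 CPM in S2-020, 9705 to 10055 in S2-007 and 14988 to 17849 in S2-028. Fibroblast markers (6 genes) summed to 2.40 to 5.68 CPM, those of endothelium (5) to 6.19 to 9.98, those of acini (4) to at most 1.07 and those of islets (4) to at most 0.751. Leukocyte markers (6 genes) summed to 295 to 377 CPM in S2-007 against 3.93 to 7.58 elsewhere, a difference carried by LYZ, while the pan-leukocyte gene PTPRC had at most 26 counts in a library. The part of these differences in the results was not tested.

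Of the 45 members, 30 reached a mean of 1 CPM in some line, namely 28 in S2-007, 27 in S2-020 and 30 in S2-028. The other 15 stayed under 1 CPM everywhere, among them 9 WNT ligands, and WNT1 had no count except 2 in 1 library of S2-028. Too few counts for any test were found for 5 members (DKK2, FZD10, SFRP1, SFRP2 and WNT1). In bulk RNA, a lower level in each cell and fewer cells with the transcript cannot be told apart.

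Promoter windows, the 250 bases before the annotated start, were read from RefSeq (GRCh38.p14) for 29 of the 45 members, with 35 windows in all because some genes list several starts. Both strands were searched for the TCF/LEF core motif as CTTTG followed by 2 bases that are each A or T. It was present in 12% of all 35116 windows and in 1 of the 35 of the family (2.86%), that of DKK1. This share covers only the members with a window. AXIN2, LGR5, ZNRF3, WNT7B, FZD2 and FZD7 were among those without one, so their promoters were not searched. In DKK1, a secreted antagonist that binds LRP5 and LRP6, the copies began 95 and 76 bases before the start. Shown with it, 5′ to 3′ on the strand of the gene, are the windows at the outermost start of RNF43, whose difference between lines was the largest of the family, of LGR6, which was low in S2-028 alone, and of FZD8, the frizzled gene with the highest level. Capitals mark the motif.
DKK1, chr10:52314031-52314280, plus strand: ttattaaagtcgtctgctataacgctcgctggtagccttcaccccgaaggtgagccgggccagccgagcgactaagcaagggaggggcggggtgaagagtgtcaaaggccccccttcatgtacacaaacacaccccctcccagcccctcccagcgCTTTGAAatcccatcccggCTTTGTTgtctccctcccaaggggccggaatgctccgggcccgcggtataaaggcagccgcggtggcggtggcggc
RNF43, chr17:58417535-58417784, minus strand: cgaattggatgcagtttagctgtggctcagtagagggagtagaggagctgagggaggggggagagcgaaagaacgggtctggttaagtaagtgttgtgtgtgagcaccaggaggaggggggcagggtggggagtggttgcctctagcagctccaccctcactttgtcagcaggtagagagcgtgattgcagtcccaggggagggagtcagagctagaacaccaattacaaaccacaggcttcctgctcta
LGR6, chr1:202193549-202193798, plus strand: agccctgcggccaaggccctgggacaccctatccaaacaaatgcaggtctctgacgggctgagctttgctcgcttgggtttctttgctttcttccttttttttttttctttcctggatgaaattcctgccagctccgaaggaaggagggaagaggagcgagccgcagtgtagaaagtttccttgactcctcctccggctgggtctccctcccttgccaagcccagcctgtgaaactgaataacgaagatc
FZD8, chr10:35642297-35642546, minus strand: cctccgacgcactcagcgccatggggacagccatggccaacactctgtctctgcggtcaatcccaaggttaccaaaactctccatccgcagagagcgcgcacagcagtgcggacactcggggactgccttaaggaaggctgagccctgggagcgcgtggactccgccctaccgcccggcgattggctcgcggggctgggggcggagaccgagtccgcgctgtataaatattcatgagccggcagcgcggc
The motif was not found in the windows of RNF43, LGR6 and FZD8, which says only that these letters are not in these bases. CpG dinucleotides numbered 18 in the window of DKK1, 24 in FZD8, 8 in LGR6 and 4 in RNF43, against a median of 19 over the family's windows and 11 over all.

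Differences between lines were common in the family. To be called a differentially expressed gene (DEG), a gene needed both a p below 0.05 in edgeR's quasi-likelihood test, adjusted over all genes by the Benjamini-Hochberg method, and a change by 1.5-fold or more (0.585 on the log2 scale). In S2-028 compared with S2-007, 38 members could be tested and 9 (23.7%) were upregulated, against 10.2% of all genes tested, while 7 (18.4%) were downregulated, against 8.19%. In S2-020 compared with S2-007, 9 of 39 (23.1%) were upregulated, against 9.57% of all genes, and 9 (23.1%) were downregulated, against 12.1%. In S2-028 compared with S2-020, 9 of 37 (24.3%) were upregulated and 11 (29.7%) were downregulated, against 12.1% and 10.1%. Tested members had a median log2 fold change of 0.05, -0.01 and -0.17 in these comparisons, beside medians of 0.00, -0.05 and 0.02 over all genes, so members moved in both directions. The comparisons share libraries and are given side by side, not as independent results. Called in at least 1 comparison were 25 members, of which 7 were called in all 3 (FZD2, FZD7, FZD8, LGR5, WNT5B, WNT10A and WNT16).

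**Figure D1:**
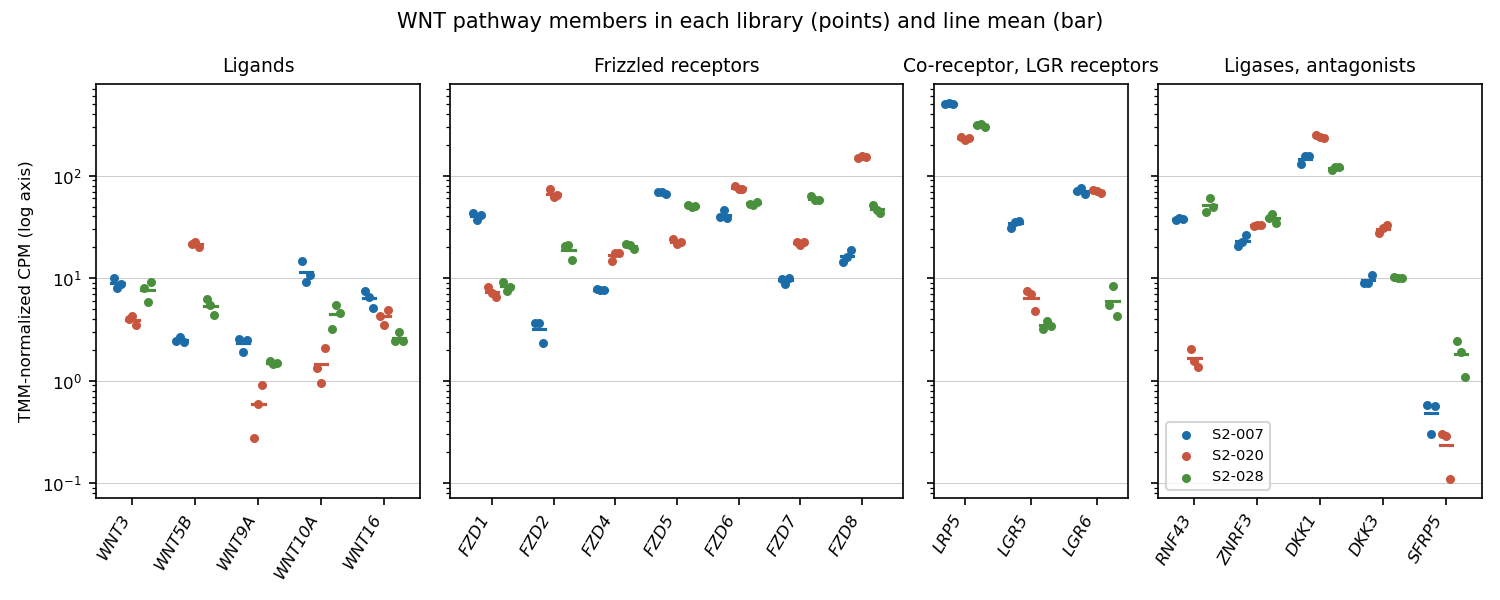
TMM-normalized CPM (log axis) of the 20 members described in full, by role, in each of the 9 libraries (points, coloured by line), with the mean of each line as a bar. Libraries of a line lie close together beside the distance between lines for FZD2, FZD8, LGR5, LGR6 and RNF43, where LGR6 is low in S2-028 and RNF43 in S2-020.

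Among the ligands, WNT7B supplied most of the WNT mRNA in every line and differed by less than 1.5-fold between lines, whereas WNT5B, WNT10A, WNT3 and WNT9A, all lower in level, differed more. The level of WNT7B, which can signal through beta-catenin and is made by many epithelia, was 386 to 408 CPM in S2-007, 313 to 340 in S2-020 and 292 to 298 in S2-028. Its log2 fold change of -0.39 ± 0.055 (SE) in S2-028 compared with S2-007 had an edgeR adjusted p of 5.76e-06 but stayed under the fold threshold. Scaled to the length of the MANE Select transcript, so that genes can be compared, WNT7B made 82.6% of summed WNT mRNA in S2-007, 77.4% in S2-020 and 80.5% in S2-028. Its close relative WNT7A was not called in any comparison (means of 25.9 ± 1.28, 34.4 ± 1.99 and 29.0 ± 1.06 CPM, SD, n = 3, in S2-007, S2-020 and then S2-028), and it was the next ligand by length-scaled level in S2-007 (5.34%) and S2-028 (7.81%). In S2-020 that place was held by WNT5B with 8.95%, ahead of WNT7A with 8.03%, but by all annotated exons of the gene in place of that transcript the shares were 7.52% and 9.07%, and by CPM without length WNT5B made 5.32%.

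WNT5B, a ligand known mainly for beta-catenin-independent signalling, was the ligand with the largest upregulation in S2-020. It measured 2.43, 2.68 and 2.39 CPM in S2-007, 21.5, 22.7 and 20.3 in S2-020 and 6.33, 5.47 and 4.34 in S2-028. The lines did not overlap, and the order was S2-020, S2-028, S2-007. The log2 fold change was 3.10 ± 0.11 in S2-020 compared with S2-007 (edgeR adjusted p = 1.26e-14), 1.13 ± 0.19 in S2-028 compared with S2-007 (4.47e-05) and -2.01 ± 0.13 in S2-028 compared with S2-020 (9.99e-11). WNT5A, the related gene, had at most 81 counts in a library and was not called.

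WNT10A, a beta-catenin-activating ligand of epithelia, had the opposite order. Its levels were 14.6, 9.21 and 10.7 CPM in S2-007, 1.33, 0.951 and 2.10 in S2-020, and 3.20, 5.51 and 4.62 in S2-028. All libraries of S2-007 lay above those of S2-028, and those above S2-020, with log2 fold changes of -2.99 ± 0.23 for S2-020 and -1.35 ± 0.19 for S2-028 compared with S2-007 (edgeR adjusted p = 1.22e-09 and 5.30e-06).

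WNT3 and WNT9A were lowest in S2-020. For WNT3, whose signal runs through beta-catenin, the libraries gave 9.96, 7.95 and 8.85 CPM in S2-007, 3.97, 4.23 and 3.47 in S2-020 and 7.93, 5.87 and 9.12 in S2-028. S2-007 and S2-028 overlapped, and S2-020 lay below both, by a log2 fold change of -1.19 ± 0.14 compared with S2-007 (edgeR adjusted p = 6.72e-07). WNT9A had 2.54, 1.90 and 2.48 CPM in S2-007, 0.277, 0.594 and 0.910 in S2-020 and 1.57, 1.44 and 1.49 in S2-028. These lines were separate, and S2-020 differed from S2-007 by -1.95 ± 0.33 (edgeR adjusted p = 5.49e-05), while the value of -0.60 ± 0.23 in S2-028 compared with S2-007 was not called (0.0550).

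WNT16, a ligand with context-dependent signalling, was highest in S2-007 and lowest in S2-028. Its CPM were 7.49, 6.60 and 5.15 in S2-007, 4.31, 3.53 and 4.91 in S2-020 and 2.46, 2.97 and 2.42 in S2-028. S2-028 was separate from both other lines, with a log2 fold change of -1.27 ± 0.18 compared with S2-007 (edgeR adjusted p = 9.38e-06). The gap between S2-007 and S2-020 was narrow (5.15 against 4.91 CPM at their nearest), and its log2 fold change of -0.60 ± 0.17 was just past the threshold and fell short of it when S2-007 replicate 1 (-0.46), S2-007 replicate 2 (-0.56) or S2-020 replicate 2 (-0.48) was left out.

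Lower ligands were called as well. WNT4 was upregulated in S2-028, with 1.37 ± 0.34 CPM in S2-007, 2.02 ± 0.32 in S2-020 and 3.09 ± 0.32 in S2-028, and WNT2B was downregulated there, with 3.17 ± 0.57, 2.74 ± 0.36 and 1.76 ± 0.41. Of the exon bases of WNT2B, 21.5% lie under another gene of the table, and how such reads were counted is not given in the sources used here. WNT6 and WNT8B were called at levels under 1 CPM: WNT6 had 14 to 54 counts in S2-020 and 2 to 6 in S2-028, and WNT8B had 12 to 40 counts in S2-028 and at most 10 elsewhere. Such counts carry little precision, and no fold is given.

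Most frizzled receptors differed between lines. S2-020 had the most frizzled mRNA and S2-007 the least, and the order of the receptors was not the same in any pair of lines. Of the 9 testable frizzled genes, 4 were upregulated and 1 downregulated in S2-028 compared with S2-007, against 10.2% and 8.19% of all genes. In S2-020 compared with S2-007 the counts were 5 and 2, against 9.57% and 12.1%, and in S2-028 compared with S2-020 they were 2 and 2, against 12.1% and 10.1%. Summed per kilobase (kb) of transcript, frizzled mRNA was 35.6 ± 0.52 CPM per kb (SD, n = 3) in S2-007, 88.2 ± 2.39 in S2-020 and 56.4 ± 2.38 in S2-028, with no overlap between lines.

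FZD8, a receptor of beta-catenin signalling, carried much of the sum in S2-020. It gave 14.5, 16.0 and 18.8 CPM in S2-007, 150.1, 155.7 and 150.4 in S2-020 and 51.5, 46.3 and 43.2 in S2-028. Lines were far apart, with log2 fold changes of 3.21 ± 0.078 in S2-020 and 1.54 ± 0.096 in S2-028 compared with S2-007 (edgeR adjusted p = 2.54e-17 and 3.04e-11). FZD2, which also takes part in WNT5A signalling, followed the same order with 3.64, 3.66 and 2.33 CPM in S2-007, 74.0, 61.6 and 64.4 in S2-020 and 20.4, 21.1 and 15.2 in S2-028. Its log2 fold change of 4.38 ± 0.12 in S2-020 compared with S2-007 was the largest upregulation of the family in either comparison with S2-007 (edgeR adjusted p = 3.13e-16), beside 2.58 ± 0.17 in S2-028 (5.12e-11). FZD2 shares 7.12% of its 31-base words with other genes, the most of the 45 members.

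FZD7, the close relative of FZD1 and FZD2 and a receptor studied in stem cells and carcinomas, peaked in S2-028 instead. Its values were 9.91, 8.68 and 10.0 CPM in S2-007, 22.4, 21.1 and 22.6 in S2-020 and 63.7, 57.9 and 57.5 in S2-028. All lines were separate, and S2-028 exceeded S2-007 by a log2 fold change of 2.67 ± 0.086 (edgeR adjusted p = 6.00e-16) and S2-020 by 1.43 ± 0.071 (3.14e-12). FZD4, which also binds the non-WNT ligand norrin, was 7.60 to 7.79 CPM in S2-007, 14.6 to 17.7 in S2-020 and 19.2 to 21.3 in S2-028. S2-007 was the lowest line, with S2-028 2.71-fold and S2-020 2.17-fold above it (edgeR adjusted p = 2.98e-10 and 3.26e-08), and the difference between the upper lines was not called (0.29 ± 0.098). For FZD4, 18.9% of the exon bases coincide with another gene of the table.

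FZD1 was the one frizzled gene called highest in S2-007. The libraries gave 42.8, 36.9 and 41.4 CPM in S2-007, 8.15, 7.14 and 6.52 in S2-020 and 9.23, 7.45 and 8.23 in S2-028. S2-020 and S2-028 overlapped and were not called apart (0.18 ± 0.13), and both were below S2-007, by -2.47 ± 0.095 and -2.26 ± 0.10 (edgeR adjusted p = 3.15e-14 and 1.22e-13). FZD5, the frizzled receptor on which RNF43-mutant PDAC cells have been found to depend, was lowest in S2-020, at 24.3, 21.7 and 22.3 CPM, against 68.8, 68.6 and 66.7 in S2-007 and 51.5, 49.9 and 50.2 in S2-028. Its log2 fold change in S2-020 compared with S2-007 was -1.58 ± 0.065 (edgeR adjusted p = 9.81e-14), and that in S2-028 was -0.40 ± 0.062, under the fold threshold.

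FZD6, often an inhibitor of beta-catenin signalling, changed least among the called frizzled genes. It measured 39.0 to 45.8 CPM in S2-007, 73.4 to 79.2 in S2-020 and 52.2 to 55.7 in S2-028, separate in all lines, and only S2-020 compared with S2-007 was called (0.87 ± 0.067, edgeR adjusted p = 1.81e-09). FZD3 and FZD9, not called in any comparison, reached at most 13.9 and 1.92 CPM, and FZD10 at most 0.303 CPM.

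Per kb of transcript, the frizzled mRNA of S2-007 was therefore led by FZD6 (31.2%), FZD5 (27.1%), FZD1 (16.4%) and FZD8 (11.4%). In S2-020 it was led by FZD8 (42.6%), FZD6 (23.0%) and FZD2 (20.0%), while FZD5 made 3.66%. In S2-028 the leaders were FZD6 (25.6%), FZD7 (23.1%), FZD8 (20.6%) and FZD5 (12.7%). With all annotated exons as the length, a choice made after seeing the data, the leading member was the same in 14 of the 15 pairs of family and line. With CPM not scaled to length, under which longer transcripts count for more, the frizzled leader was FZD5 in S2-007 (34.7%, with FZD6 at 21.1%) and FZD7 in S2-028 (22.2%, with FZD6 at 20.0%), and FZD8 remained ahead in S2-020 (40.4%).

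**Figure D2:**
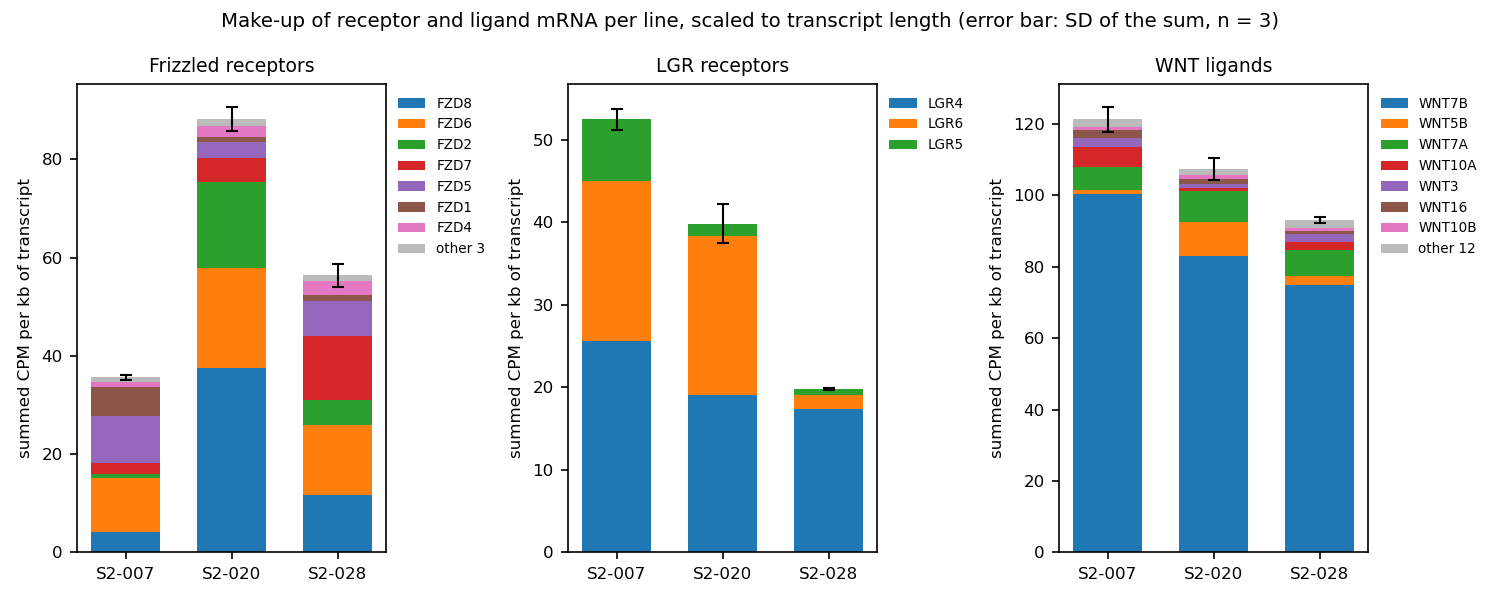
Summed mRNA level of frizzled receptors, LGR receptors and WNT ligands in each line, in CPM per kb of MANE Select transcript, stacked by member as the mean of 3 libraries, with the SD of the sum as error bar. The frizzled sum is highest in S2-020 at 88.2 CPM per kb, the LGR sum lowest in S2-028 at 19.8, and WNT7B fills most of the ligand bar in every line.

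The co-receptors differed less. LRP5 stood at 504, 508 and 495 CPM in S2-007, 237, 222 and 234 in S2-020 and 312, 320 and 297 in S2-028. The lines were separate, with S2-007 highest, and log2 fold changes compared with S2-007 were -1.12 ± 0.048 in S2-020 and -0.67 ± 0.055 in S2-028 (edgeR adjusted p = 2.11e-13 and 2.62e-09). For S2-028 the call was lost when the test was made against a 1.5-fold change itself. The paralogue LRP6 was not called in any comparison, with means of 58.6 ± 3.69, 84.5 ± 5.52 and 64.4 ± 4.29 CPM in the order S2-007, S2-020, S2-028. Its log2 fold changes of 0.53 ± 0.064 in S2-020 compared with S2-007 and -0.40 ± 0.066 in S2-028 compared with S2-020 stayed under the fold threshold. Their edgeR adjusted p were 9.50e-07 and 5.35e-05. Per kb of transcript, LRP5 exceeded LRP6 in every line and made 94.4%, 84.4% and 90.5% of the sum of both (89.5%, 73.3% and 82.8% by CPM without length).

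LGR receptors bind R-spondins, and LGR5 marks stem cells of several epithelia. LGR mRNA was highest in S2-007 and lowest in S2-028, and the lines with low LGR5 were not all low in LGR6. LGR5 had 30.8, 35.4 and 36.4 CPM in S2-007, 7.53, 7.01 and 4.78 in S2-020 and 3.17, 3.81 and 3.38 in S2-028. It was thus low in both other lines, with log2 fold changes of -3.28 ± 0.11 for S2-028 and -2.41 ± 0.13 for S2-020 compared with S2-007 (edgeR adjusted p = 1.76e-15 and 4.67e-12). Between the low lines, the log2 fold change of S2-028 compared with S2-020 was -0.91 ± 0.18 (edgeR adjusted p = 0.000350), a call lost in the test against 1.5-fold (0.0823).

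LGR6 was low in S2-028 only. Its libraries gave 71.6, 75.1 and 65.6 CPM in S2-007, 73.0, 70.5 and 67.4 in S2-020, and 5.44, 8.39 and 4.31 in S2-028. S2-007 and S2-020 overlapped (-0.01 ± 0.061), and S2-028 differed by -3.52 ± 0.15 from S2-007 and by -3.54 ± 0.15 from S2-020 (edgeR adjusted p = 5.95e-14 and 3.13e-13). The 50 tested genes nearest to LGR6 on chromosome 1 (the gene spans 202193799 to 202319761, GRCh38.p14) had median log2 fold changes of -0.58 and -0.45 in these comparisons, the lowest such medians beside any of the 20 members shown. Gene copy number was not measured, and its part was not tested. LGR4, the most even of the LGR genes, had means of 134.5 ± 0.078 CPM in S2-007, 100.3 ± 7.39 in S2-020 and 91.2 ± 2.80 in S2-028. It was lower in S2-028 (-0.53 ± 0.058) and S2-020 (-0.42 ± 0.057) compared with S2-007 (edgeR adjusted p = 1.88e-07 and 4.03e-06). Both values stayed under the fold threshold, and LGR4 was not called in any comparison.

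The summed LGR level was 52.5 ± 1.27 CPM per kb in S2-007, 39.8 ± 2.36 in S2-020 and 19.8 ± 0.14 in S2-028. LGR4 made 48.9% of it in S2-007 and 87.8% in S2-028. In S2-020, LGR6 (48.5%) and LGR4 (48.0%) made nearly equal shares, whose order turned with all annotated exons as the length (47.0% and 49.2%) and with CPM without length (39.7% and 56.6%).

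**Figure D3:**
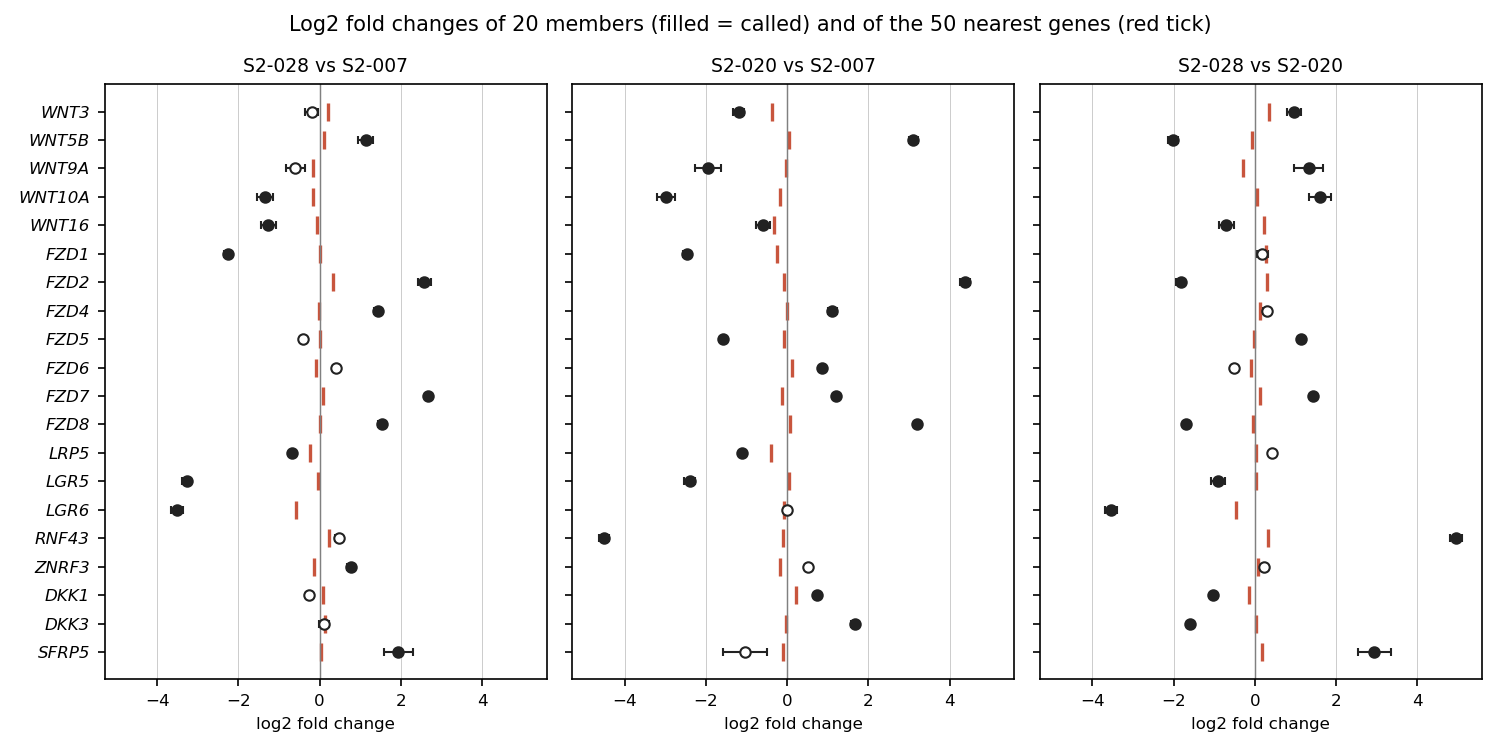
Log2 fold change with its standard error (points and bars) of 20 members in the 3 comparisons between lines, filled where the gene was called and open where it was not, with a red tick at the median for the 50 tested genes nearest by. RNF43 stands at -4.52 and 4.96 in the comparisons with S2-020, and the red ticks lie between -0.58 and 0.35.

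RNF43 showed the largest difference of the family. The ligase was at 36.7, 39.0 and 37.5 CPM in S2-007, 2.02, 1.57 and 1.35 in S2-020, and 44.3, 60.6 and 49.2 in S2-028. S2-020 was far below both other lines, whereas S2-028 lay somewhat above S2-007. The log2 fold change was -4.52 ± 0.12 in S2-020 compared with S2-007 and 4.96 ± 0.14 in S2-028 compared with S2-020 (edgeR adjusted p = 1.02e-16 and 9.84e-16). That of S2-028 compared with S2-007, 0.47 ± 0.091, was under the fold threshold. In counts, RNF43 had 98 to 146 reads per library in S2-020, well over the floor. Medians of the 50 nearest genes on chromosome 17 were -0.10, 0.32 and 0.24 in the same order, and another gene of the table covers 5.50% of its exon bases.

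ZNRF3, the related ligase, did not follow RNF43. It was 20.5, 22.4 and 26.2 CPM in S2-007, 32.3, 33.4 and 32.9 in S2-020 and 38.4, 42.4 and 34.7 in S2-028, with S2-007 lowest in every library. S2-028 was upregulated compared with S2-007 by 0.77 ± 0.095 (edgeR adjusted p = 1.15e-06), a call that was lost against a 1.5-fold null. The value of 0.51 ± 0.084 in S2-020 was not called, but it became 0.65 and was called without S2-007 replicate 3.

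AXIN2 is a scaffold of the beta-catenin destruction complex and itself a widely used target of beta-catenin. It had 5.30, 3.05 and 4.59 CPM in S2-007, 9.26, 8.14 and 7.50 in S2-020 and 4.50, 5.51 and 4.34 in S2-028. S2-020 was above both other lines, which overlapped, with log2 fold changes of 0.94 ± 0.17 for S2-020 compared with S2-007 and -0.80 ± 0.15 for S2-028 compared with S2-020 (edgeR adjusted p = 0.000136 and 0.000152).

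Among the antagonists, DKK1 and DKK3 were highest in S2-020 and SFRP5 in S2-028. DKK1, the gene with the motif copies shown above, had 131.0, 154.0 and 154.1 CPM in S2-007, 252, 239 and 233 in S2-020 and 115, 122 and 122 in S2-028. No lines overlapped, and S2-020 exceeded S2-007 by a log2 fold change of 0.72 ± 0.062 (edgeR adjusted p = 7.94e-09), while S2-028 was below S2-020 by -1.02 ± 0.053 (6.45e-12). Another gene of the table covers 10.8% of the exon bases of DKK1. DKK3, a divergent Dickkopf protein that is often silenced in tumours, was at 8.87, 8.94 and 10.8 CPM in S2-007, 27.6, 30.7 and 32.6 in S2-020 and 10.3, 10.1 and 10.1 in S2-028. S2-007 and S2-028 overlapped (0.11 ± 0.12), and S2-020 was above them by 1.67 ± 0.098 compared with S2-007 (edgeR adjusted p = 2.55e-11). Per kb of transcript, DKK1 supplied 91.6% or more of Dickkopf mRNA in each line, and DKK2 and DKK4 had at most 24 counts in a library.

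SFRP5, a secreted decoy for WNT ligands, was the only SFRP gene over 1 CPM. It had 42, 22 and 42 counts in S2-007, 22, 24 and 8 in S2-020 and 152, 124 and 66 in S2-028, that is at most 0.574, 0.305 and 2.46 CPM. All libraries of S2-028 were above those of the other lines, and the log2 fold change was 1.94 ± 0.36 compared with S2-007 and 2.94 ± 0.41 compared with S2-020 (edgeR adjusted p = 0.000157 and 6.36e-06). SFRP1, SFRP2 and SFRP4 had at most 20 counts in any library.

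By line, 5 members were called highest in S2-007 against both others (FZD1, LGR5, LRP5, WNT10A and WNT16), and 5 lowest (FZD2, FZD4, FZD7, FZD8 and WNT5B). S2-020 was highest for 6 (AXIN2, DKK1, DKK3, FZD2, FZD8 and WNT5B) and lowest for 5 (FZD5, RNF43, WNT3, WNT9A and WNT10A), and S2-028 was highest for 3 (FZD7, SFRP5 and WNT4) and lowest for 4 (LGR5, LGR6, WNT2B and WNT16). These are counts among the 35 members tested in all comparisons, and the same patterns held 3.37% to 6.26% of all 24986 genes so tested. The uncalled members with the highest levels were WNT7B, LGR4, LRP6 and WNT7A, and 15 tested members in all were not called anywhere.

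Other genes of the pathway were read from 4 lists. Of 15 testable genes for WNT release and secreted regulation, 3 were upregulated and 5 downregulated in S2-028 compared with S2-007, (median -0.30 on the log2 scale), against 10.2% and 8.19% of all genes, and 3 each way in S2-020 compared with S2-007, against 9.57% and 12.1%. PORCN, the acyltransferase that lipid-modifies WNT ligands, was 9.01 to 11.9 CPM in S2-007, 37.9 to 43.3 in S2-020 and 29.3 to 51.5 in S2-028, upregulated in both by 2.02 ± 0.098 and 2.07 ± 0.15. WLS, which carries WNT ligands to the cell surface, was 156 to 171 CPM in S2-007, 247 to 263 in S2-020 and 73.6 to 91.0 in S2-028, with log2 fold changes of 0.68 ± 0.054 and -0.93 ± 0.073 compared with S2-007. TRABD2A, a membrane protease that inactivates WNT ligands, was low in S2-028, at 1.70 to 2.28 CPM against 20.3 to 31.6 in the other lines (-3.80 ± 0.13 compared with S2-007). The glypican GPC3 had 190 to 239 counts per library in S2-028 and at most 5 in the others.

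Of 14 receptors outside the frizzled family and polarity genes, 4 were upregulated and 0 downregulated in S2-028 compared with S2-007 (edgeR; median 0.42; all genes 10.2% and 8.19%), and 5 and 0 in S2-020 compared with S2-007 (all genes 9.57% and 12.1%). In S2-028 compared with S2-020 calls went both ways, with 2 upregulated and 2 downregulated (all genes 12.1% and 10.1%). ROR1, a receptor for WNT5A, was 68.1 to 77.1 CPM in S2-028 against 13.4 to 19.2 in the other lines, a log2 fold change of 2.06 ± 0.083 compared with S2-007. PTK7, a pseudokinase co-receptor, rose from 10.7 to 15.8 CPM in S2-007 to 25.4 to 32.1 in S2-020 and 37.3 to 43.0 in S2-028. The polarity gene PRICKLE1 was 3.16 to 4.35 CPM in S2-007, 24.1 to 29.4 in S2-020 and 14.2 to 18.7 in S2-028. The WNT receptor RYK was 49.0 to 55.5, 74.4 to 85.2 and 88.2 to 92.7 CPM in the same order of lines. Its log2 fold change in S2-020 compared with S2-007, 0.5852 ± 0.065, only just passed the threshold of 0.585.

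Of 28 genes of the cytoplasmic and nuclear beta-catenin pathway, 5 were upregulated and 3 downregulated in both S2-028 and S2-020 compared with S2-007, each count over its own comparison, with medians of 0.17 in each. Shares over all genes were 10.2% and 8.19% for S2-028 and 9.57% and 12.1% for S2-020. TLE1, a co-repressor of TCF proteins, was 25.8 to 28.5 CPM in S2-007, 62.6 to 67.9 in S2-020 and 95.4 to 106 in S2-028. The 3 downregulated in S2-028 compared with S2-007, named here after their values were seen, were TLE4 (-0.95 ± 0.14) and TLE2 (-0.89 ± 0.19), also of the TLE co-repressor family, and TCF7L1 (-0.71 ± 0.25), a TCF protein. The larger difference of TLE4 was in S2-020, where it was upregulated compared with S2-007 (2.10 ± 0.083). Its means were 8.80 ± 0.65 CPM in S2-007, 37.6 ± 0.96 in S2-020 and 4.46 ± 0.38 in S2-028. CTNNBIP1, which blocks beta-catenin from binding TCF, was 44.2 to 49.2 CPM in S2-028 against 19.5 to 27.9 elsewhere. The kinases GSK3A and CSNK1E were upregulated in S2-028 compared with S2-007 by 0.63 ± 0.074 and 0.61 ± 0.075. In S2-020 compared with S2-007, GSK3A was likewise upregulated (0.63 ± 0.069), whereas CSNK1E was not called (-0.24 ± 0.071).

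Known target genes went both ways. Of 19 tested, 3 were upregulated and 4 downregulated in S2-028 compared with S2-007, 4 and 5 in S2-020 compared with S2-007, and 6 and 6 in S2-028 compared with S2-020, where AXIN2 was downregulated. In the same order, shares over all genes were 10.2% and 8.19%, 9.57% and 12.1%, and 12.1% and 10.1%. The list shares TCF7 and LEF1 with the nuclear list and NOTUM and APCDD1 with that of secreted regulators. MMP7, a matrix protease, was 630 to 647 CPM in S2-007, 46.4 to 67.5 in S2-020 and 117 to 139 in S2-028. The ephrin receptors EPHB2 and EPHB3 were highest in S2-028, EPHB2 at 38.9 to 44.6 CPM against 16.2 to 17.3 in S2-007 and 1.51 to 2.01 in S2-020. TNFRSF19 (also called TROY) was 133 to 138 CPM in S2-020, 3.98 to 4.95 in S2-007 and 0.129 to 0.261 in S2-028, with a log2 fold change of 4.90 ± 0.078 in S2-020 compared with S2-007 (edgeR adjusted p = 6.38e-20).

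**Figure D4:**
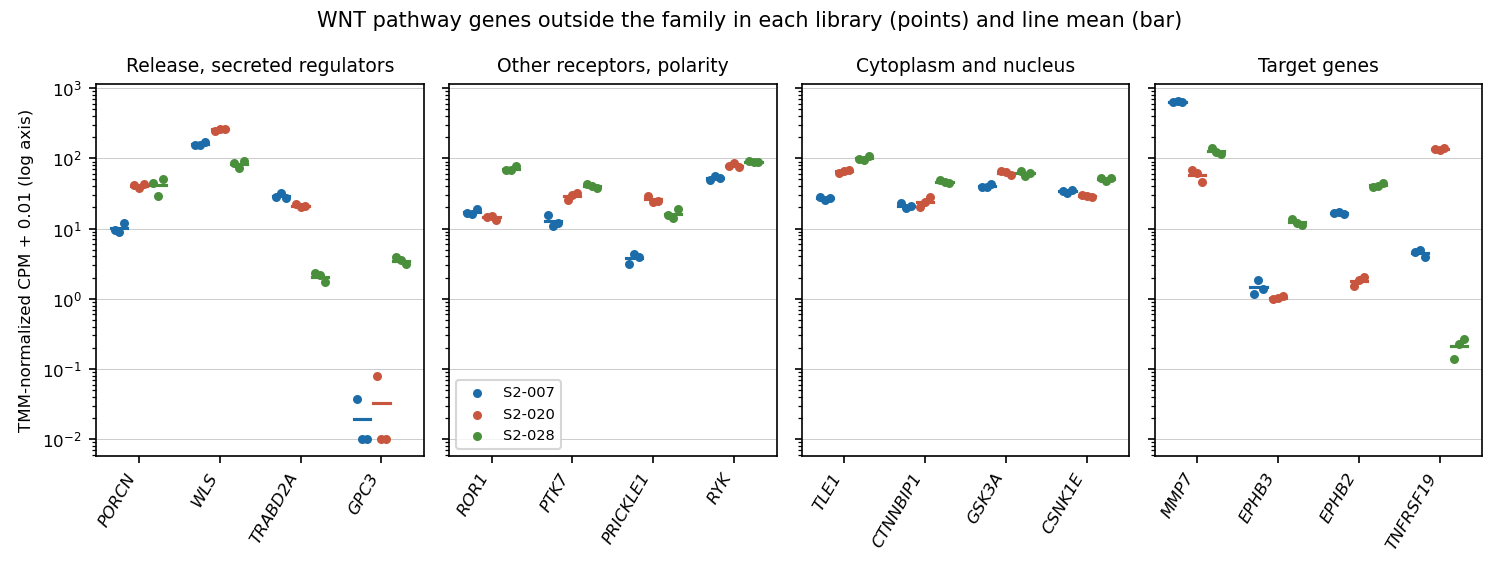
TMM-normalized CPM plus 0.01 (log axis) of 16 WNT pathway genes outside the family, 4 from each list, in each library (points) with the mean of each line (bar). PORCN is lower in S2-007 than in both other lines, ROR1 higher in S2-028, and MMP7 and TNFRSF19 differ between all lines.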

How the data were processed

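Per the labels and the methods, poly(A)-selected, strand-specific libraries of the 9 samples were sequenced on an Illumina NovaSeq. The submitters' processing notes list Trimmomatic 0.39, BWA 0.7.17, SAMtools 1.12, edgeR 3.16.5 and GRCh38.p14, while the counting tool and its treatment of overlaps and strand are not given in the sources used here. Since BWA is not a spliced aligner, reads that cross an exon junction may be clipped or missed, and how far this touched single genes was not tested. The authors deposited raw counts of mapped reads per gene, which were used as they stand, and 18 columns of normalized values, which were not used. A further 2 lines that name no gene were left out. Counts from 1 to 20 were even in 74.6% to 76.1% of cases per library, so both reads of a pair may have been counted, and fewer fragments than counts may stand behind a value.

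The test was edgeR's quasi-likelihood F-test (edgeR 4.0.16, R 4.3.3), run on TMM-normalized counts that had passed filterByExpr (minimum count 10, minimum total 15), with the 6 libraries of each comparison in a fit and Benjamini-Hochberg adjustment over all genes tested. The study's text names a likelihood ratio test and its table the quasi-likelihood test, so the former was an alternative, as were DESeq2 1.42.0, a test against 1.5-fold, other normalizations and filters, all 9 libraries in one fit, a replicate block and the omission of each library. The procedure was tested on simulated counts. CPM are TMM-normalized with factors from all 9 libraries, and errors are SD over 3 libraries or, for log2 fold changes, SE. The SE was computed back from the test, as the size of the log2 fold change divided by the square root of F. Lengths came from GENCODE v44, and positions, neighbours and promoters from RefSeq, in which 42539 of the gene identifiers (99.6%) were found.

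The members and gene lists were chosen with earlier results of these data known. Per-library values or ranges were given for members that reached 1 CPM in some line and were called, limited to the 20 with the smallest adjusted p. Another 3 passed the same limits but for that number. Of these, AXIN2 was given by library, and WNT2B and WNT4 as mean and SD. By rule, the 4 uncalled members of the highest level and at most 4 genes of a list were named. Beyond this rule, TLE4, TLE2 and TCF7L1 were named after their values were seen. Further uncalled members and the genes shared between lists were named as well.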

Additional observations from a re-analysis of the deposited data

How the results depend on the processing

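Over the settings tried, the log2 fold changes of the 20 members shown were recomputed 899 times. Of these values, 875 kept their direction and their side of the threshold, while 12 lost a call, 6 gained one and 6 changed sign. The 20 members were picked by the smallest adjusted p in these same data. Weaker calls (AXIN2, WNT2B, WNT4, WNT6 and WNT8B) are not among the values, which may therefore overstate how stable the calls of the family are. All 6 sign changes concerned LGR6 in S2-020 compared with S2-007, a value near 0 that was never called: 0.0233 with DESeq2, with RLE normalization and with all 9 libraries in one fit, and 0.0093, 0.0201 and 0.050 without S2-007 replicate 1, S2-020 replicate 3 and S2-007 replicate 2. Leaving out 1 library in turn gave -0.035 to 0.050 for it. WNT16 in the same comparison lost its call with DESeq2, RLE normalization, all 9 libraries in one fit (-0.56 in each), the test against 1.5-fold and without 3 single libraries (lowest size -0.46). WNT9A in S2-028 compared with S2-007 was called with the likelihood ratio test (-0.60), DESeq2 and RLE normalization (-0.61), a minimum count of 50 (-0.62) and without S2-007 replicate 2 (-0.71). The test against 1.5-fold also ended the calls of LRP5 and ZNRF3 in S2-028 compared with S2-007 and of LGR5, WNT16 and WNT9A in S2-028 compared with S2-020. With it, 2977, 3639 and 3638 genes were called in S2-028 and S2-020 compared with S2-007 and in S2-028 compared with S2-020, in place of 4858, 5769 and 5788. In the last, 7 members in place of 11 were lower and 6 in place of 9 higher. In S2-028 compared with S2-007, 7 in place of 9 were higher and 5 in place of 7 lower. In S2-020 compared with S2-007, 9 stayed higher and 8 in place of 9 were lower. With the adjusted p alone, 8927, 10708 and 10517 genes were called. In S2-028 compared with S2-007, 11 members in place of 7 were then lower and 11 in place of 9 higher. Members higher and lower were 13 and 11 in S2-020 compared with S2-007, and 12 and 16 in S2-028 compared with S2-020. Both settings differ from the rule only in how the fold threshold enters.

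Leaving out 1 library gave 8 to 9 members higher and 7 lower in S2-028 compared with S2-007, 9 to 12 and 8 to 10 in S2-020 compared with S2-007, and 7 to 10 and 9 to 11 in S2-028 compared with S2-020. The labels number the libraries of each line 1 to 3, but libraries with the same number did not deviate together (r from -0.0206 to 0.0145). No common effect of the number was thus seen. Whether such libraries shared a culture or a preparation cannot be told from these values. With the replicate block, 9 members were higher and 7 lower in S2-028 compared with S2-007 (4865 genes called), 9 and 10 in S2-020 compared with S2-007 (5650) and 9 and 11 in S2-028 compared with S2-020 (5716). Depth limits WNT6, WNT8B and the SFRP genes, which rest on few counts.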
